A study of Mus musculus with 6 samples.

Results

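The BCL2 family of apoptosis regulators was followed through platinum treatment of TRAMP-C2 cells as 10 genes: Bcl2, Bcl2l1, Mcl1, Bax, Bak1, Bbc3, Pmaip1, Bid, Bcl2l11 and Bad. The genes were chosen by name, from what their proteins do, with earlier results of these data known. They were found in the count table through their Ensembl identifiers. They are 10 of 54446 genes in the table, and all 10 were among the 14956 genes that passed a filter of at least 10 counts in at least 2 libraries. Another 15 genes of the wider family are described after them.

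TRAMP-C2 is a prostate cancer cell line of male C57BL/6 origin. It was derived from the TRAMP mouse, in which the probasin promoter drives an SV40 T antigen transgene in prostate epithelium. Poly(A) RNA was sequenced from 6 libraries: 2 of control cells given no drug, 2 of cells given 2 µM oxaliplatin and 2 of cells given 2 µM cisplatin, with 24 h in the labels of every group. All groups were thus 1 cell line at 1 time and 1 dose, and the labels do not say whether replicates came from separate cultures. Both drugs bind platinum to DNA. Oxaliplatin carries a diaminocyclohexane group where cisplatin carries ammonia ligands, and an oxalate leaving group where cisplatin carries chlorides.

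Proteins of the BCL2 family decide whether the outer mitochondrial membrane stays intact. Survival proteins (BCL2, BCL-XL from Bcl2l1 and MCL1) hold the pore-forming effectors BAX and BAK in check. BH3-only proteins, which share just a short helix called the BH3 domain with the rest of the family, are raised or modified by cell damage and either block the survival proteins or engage the effectors. Once the effectors open the membrane, cytochrome c leaves the mitochondrion and caspases are activated. Several BH3-only genes and Bax are known p53 targets, and much of the control of MCL1, BAD and BID is exerted on the protein, which RNA counts do not show.

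The BH3 domain takes part in the binding of these proteins to each other, and a stretch coding for it was searched for in every member. The search translated the coding sequence of 1 GENCODE M21 transcript per gene and looked for a leucine followed, after 3 free positions, by glycine, alanine or serine and then aspartate. The coding sequence of 9 members held exactly 1 match each, and that of Pmaip1 held 2, which are not printed. The sequences below are the coding strand of GRCm38, 5′ to 3′, with the leucine codon and the codons of the small residue and the aspartate in capitals.
Bcl2: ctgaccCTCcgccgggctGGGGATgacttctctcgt
Bcl2l1: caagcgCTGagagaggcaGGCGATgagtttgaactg
Mcl1: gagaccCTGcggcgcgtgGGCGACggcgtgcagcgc
Bax: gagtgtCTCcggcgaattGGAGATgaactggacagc
Bak1: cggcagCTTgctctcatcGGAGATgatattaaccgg
Bbc3: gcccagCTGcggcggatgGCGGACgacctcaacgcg
Bid: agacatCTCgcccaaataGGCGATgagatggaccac
Bcl2l11: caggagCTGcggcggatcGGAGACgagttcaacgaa
Bad: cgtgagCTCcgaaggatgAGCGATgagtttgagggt

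Among the survival genes these stretches lay at chr1:106712572-106712607 on the minus strand (exon 1 of Bcl2), chr2:152829694-152829729 on the minus strand (exon 2 of Bcl2l1) and chr3:95659430-95659465 on the plus strand (exon 1 of Mcl1). In the effectors they lay at chr7:45465994-45466029 on the minus strand (exon 3 of Bax) and chr17:27022528-27022563 on the minus strand (exon 4 of Bak1). In the BH3-only genes they lay at chr7:16313767-16313802 on the plus strand (exon 3 of Bbc3), chr6:120897286-120897321 on the minus strand (exon 4 of Bid), chr2:128147144-128147179 on the plus strand (exon 3 of Bcl2l11) and chr19:6950786-6950821 on the plus strand (exon 3 of Bad). Glycine was the small residue in 7 of these 9 genes, with alanine in Bbc3 and serine in Bad.

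Total counts ranged from 21345312 to 24041767 per library, so that 3 counts, the limit that a count of 0 allows, correspond to 0.125 to 0.141 CPM, a count scaled to its library total, for counting error alone. Mitochondrial genes took 1.87% to 2.11% of the counts in every library. The labelled cell type was checked against markers. Of the prostate markers given here, Pbsn was at 0 in all libraries, and Tmprss2 and Hoxb13 did not exceed 3 normalised counts. Of 6 epithelial markers, 4 or 5 had a count in each library (summed level 708 to 751 in control, 755 to 771 in oxaliplatin and 960 to 962 in cisplatin), with Krt5 at 0 and Epcam at no more than 1.97. All 4 mesenchymal markers were present, at 285860 to 294830 in control, 265710 to 274270 in oxaliplatin and 252970 to 264990 in cisplatin. DESeq2 called Col1a1 lower after oxaliplatin (-0.26 ± 0.04 SE on the log2 scale, adjusted p = 7.03e-08) and cisplatin (-0.34 ± 0.04, 1.04e-12). It called Vim higher after both (0.12 ± 0.04, 0.0272, and 0.28 ± 0.04, 4.72e-09) and Fn1 lower after cisplatin (-0.26 ± 0.08, 0.0036). It also called epithelial Cdh1 higher after cisplatin (0.53 ± 0.14, 0.00086) and Krt14 after oxaliplatin (0.68 ± 0.26, 0.0408). Of the 4 leukocyte markers, no more than 2 had a count in any library, and the 3 endothelial markers summed to 22.7 to 27.0 in control, 51.2 to 61.3 in oxaliplatin and 53.2 to 71.6 in cisplatin libraries, most of it Kdr. DESeq2 called Kdr higher after oxaliplatin (1.20 ± 0.43 SE on the log2 scale, adjusted p = 0.0259 by DESeq2) and after cisplatin (1.31 ± 0.43, 0.0109). The cisplatin call was lost without oxaliplatin replicate 1 (adjusted p = 0.0584 by DESeq2) or replicate 2 (0.0545), and no adjusted p was given for other libraries left out, nor for oxaliplatin. The part of these differences in the results below was not tested.

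Values are normalised counts, that is counts divided by the size factor of the library, given for replicate 1 and then replicate 2. Fold changes and their standard errors (SE) come from 1 DESeq2 fit of all 6 libraries, and a gene was called at a Benjamini-Hochberg adjusted p below 0.05 over all genes tested. The contrasts of oxaliplatin and of cisplatin with control share the same 2 control libraries, so their values are given side by side.

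After oxaliplatin, 2 of the 10 members were called against control, Bax and Bid, both higher, where 20.2% of all tested genes were called (10.7% higher and 9.5% lower). After cisplatin, 4 members were called, the effector Bak1 and the BH3-only genes Pmaip1, Bid and Bcl2l11, all higher, where 28.1% of all tested genes were called (15.7% higher and 12.4% lower). No survival gene was called against control after either drug by DESeq2 with Benjamini-Hochberg adjustment. At an unadjusted p below that threshold 2 passed after oxaliplatin and 0 after cisplatin, and edgeR's quasi-likelihood test likewise called 2 after oxaliplatin (Bcl2l1, edgeR adjusted p = 0.0254, and Mcl1, 0.0463) and 0 after cisplatin. Between the drugs 4 members were called, with Bcl2l1 higher and Bak1, Bbc3 and Bcl2l11 lower in oxaliplatin than in cisplatin cells, where 19.9% of all tested genes were called (8.62% higher and 11.3% lower). The median log2 fold change of the 10 members was 0.13 after oxaliplatin, 0.16 after cisplatin and -0.14 between the drugs, and over all tested genes it was -0.0029, -0.00083 and -0.0033. At an unadjusted p below the same threshold, 5 members passed after oxaliplatin (28.2% of all tested genes), 5 after cisplatin (35.7%) and 7 between the drugs (28.5%). edgeR's quasi-likelihood test called 5 members after oxaliplatin, 5 after cisplatin and 7 between the drugs. Of all tested genes it called 30.9%, 40.9% and 31.9%.

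**Figure D1:**
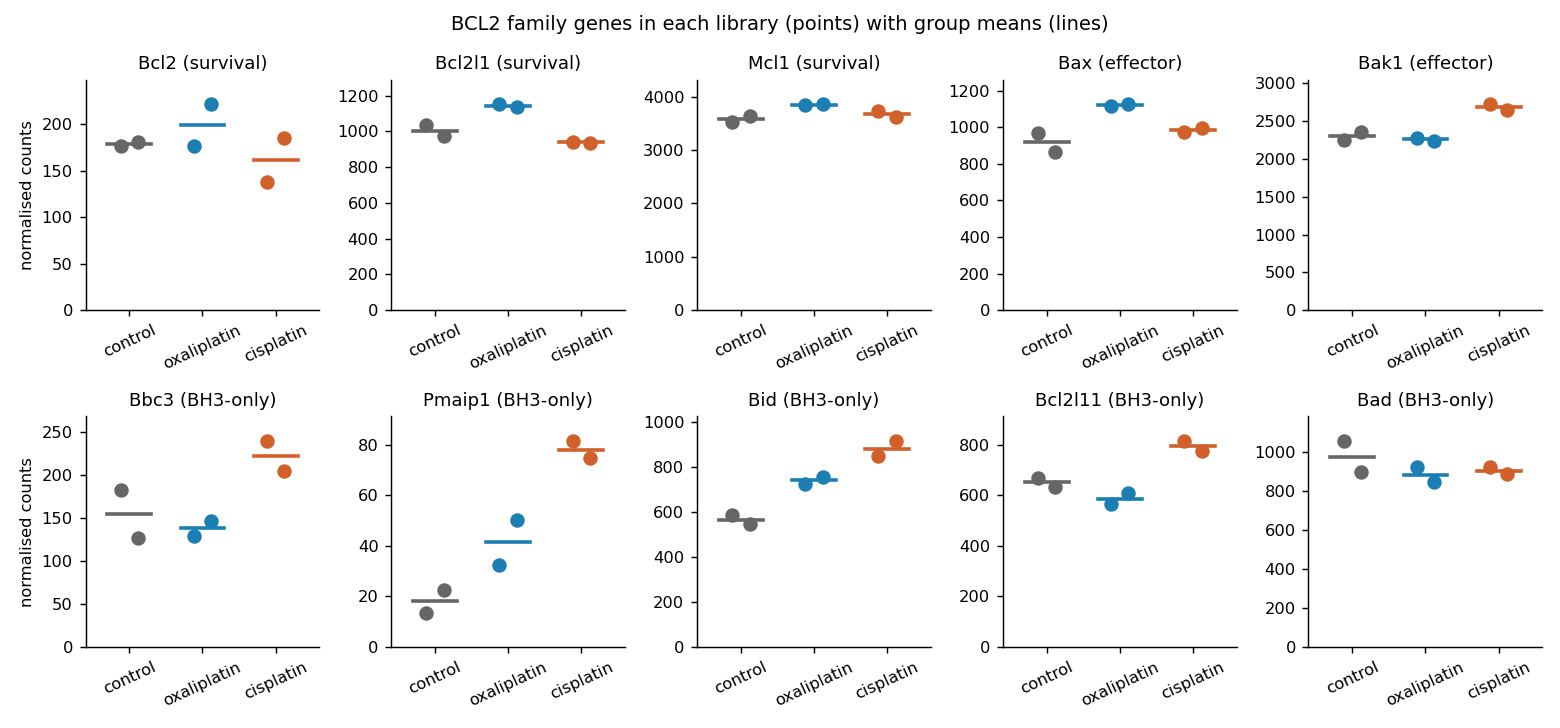
Normalised counts of the 10 BCL2 family genes in each library (points, 2 per group) with group means (lines), on axes that start at 0 and differ between genes. Pmaip1 runs from 13.5 and 22.7 in control to 81.4 and 74.7 in cisplatin libraries, whereas Mcl1 stays between 3527 and 3856 in all 6 libraries.

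Among the survival genes, Mcl1 (ENSMUSG00000038612, chromosome 3, 95658788 to 95663176), whose short-lived protein binds BAK and several BH3-only proteins, had 3527 and 3633 normalised counts in control, 3848 and 3856 in oxaliplatin and 3733 and 3624 in cisplatin libraries. The oxaliplatin libraries were the highest and the control and cisplatin ranges overlapped. The log2 change was 0.11 ± 0.05 (SE) after oxaliplatin (adjusted p = 0.121 by DESeq2) and 0.04 ± 0.05 after cisplatin (adjusted p = 0.618 by DESeq2). Between the drugs it was 0.07 ± 0.05 (adjusted p = 0.380 by DESeq2; 95% interval -0.03 to 0.17).

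Bcl2l1 (ENSMUSG00000007659, chromosome 2, 152780668 to 152831728), the gene of BCL-XL, had 1035 and 972 normalised counts in control, 1150.3 and 1134 in oxaliplatin and 939 and 936 in cisplatin libraries. The groups did not overlap, with oxaliplatin above and cisplatin below control. Neither step passed against control, with log2 fold changes of 0.19 ± 0.09 (SE) after oxaliplatin (adjusted p = 0.106 by DESeq2) and -0.10 ± 0.09 after cisplatin (adjusted p = 0.445 by DESeq2). Between the drugs Bcl2l1 was higher in oxaliplatin cells by 0.28 ± 0.09 on the log2 scale (adjusted p = 0.0075 by DESeq2). That call was lost without oxaliplatin replicate 1 (adjusted p = 0.212 by DESeq2), oxaliplatin replicate 2 (0.147), cisplatin replicate 1 (0.163) or cisplatin replicate 2 (0.155).

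Bcl2 (ENSMUSG00000057329, chromosome 1, 106538178 to 106714274), the founding survival gene of the family, was the least abundant of these, with 176 and 180.3 normalised counts in control, 176 and 221 in oxaliplatin and 138 and 185 in cisplatin libraries. All groups overlapped. The log2 change was 0.15 ± 0.23 (SE) after oxaliplatin (adjusted p = 0.702 by DESeq2), -0.14 ± 0.24 after cisplatin (adjusted p = 0.706 by DESeq2) and 0.30 ± 0.23 between the drugs (adjusted p = 0.394 by DESeq2). The 95% interval between the drugs, -0.16 to 0.75, still holds a difference as large as that called for Bcl2l1. Within the class, Mcl1 supplied 80.6% to 83.2% of the normalised counts per kilobase of exon, Bcl2l1 most of the remainder (17.7% and 16.4% in control libraries) and Bcl2 1.15% to 1.72%, over all 6 libraries. Exon length here and below is that of all annotated exons of a gene merged, whichever of its transcripts were present.

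The effectors were each called after 1 drug. Bax (ENSMUSG00000003873, chromosome 7, 45461697 to 45466898), whose protein moves from the cytosol to the mitochondrion when activated, had 970.25 and 864 normalised counts in control, 1114 and 1125 in oxaliplatin and 973 and 996 in cisplatin libraries. Both oxaliplatin libraries lay above all others, and the cisplatin libraries lay just above the higher control library. Bax rose after oxaliplatin, by a log2 fold change of 0.29 ± 0.09 (SE; adjusted p = 0.0129 by DESeq2), which is 1.22-fold.

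The Bax call held without control replicate 1 and was lost without any other library. The DESeq2 adjusted p was then 0.285 without control replicate 2, 0.179 and 0.210 without oxaliplatin replicates 1 and 2, and 0.0595 and 0.0627 without cisplatin replicates 1 and 2. After cisplatin Bax differed from control by 0.10 ± 0.10 (SE) on the log2 scale (adjusted p = 0.457 by DESeq2). Between the drugs the log2 difference of 0.19 ± 0.09 did not pass (adjusted p = 0.144 by DESeq2), so that a difference of Bax between oxaliplatin and cisplatin was not shown, with a 95% interval from 0.000145 to 0.37.

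Bak1 (ENSMUSG00000057789, chromosome 17, 27019810 to 27029009), whose protein sits in the outer mitochondrial membrane from the start, had 2253 and 2357 normalised counts in control, 2276 and 2240.2 in oxaliplatin and 2721 and 2645 in cisplatin libraries. The cisplatin libraries stood above all others, and control and oxaliplatin overlapped. Bak1 rose after cisplatin by 0.22 ± 0.06 (SE) on the log2 scale, 1.16-fold (adjusted p = 0.0020 by DESeq2), and its change after oxaliplatin was -0.03 ± 0.06 (adjusted p = 0.797 by DESeq2). It was lower in oxaliplatin than in cisplatin cells by a log2 fold change of -0.25 ± 0.06 (adjusted p = 0.00049 by DESeq2).

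The cisplatin call of Bak1 was lost without control replicate 1 (adjusted p = 0.0927 by DESeq2), cisplatin replicate 1 (0.120) or cisplatin replicate 2 (0.0517). The call between the drugs was lost without oxaliplatin replicate 1 (adjusted p = 0.0508 by DESeq2), oxaliplatin replicate 2 (0.0757) or cisplatin replicate 1 (0.0870). Bak1 shares 437 and 177 exon bases with annotated models of Ggnbp1 on the other strand, of which the first averaged 62.6 counts against 2428 for Bak1.

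The largest called changes were those of BH3-only genes. Pmaip1 (ENSMUSG00000024521, chromosome 18, 66458533 to 66465565), which encodes NOXA, a BH3-only protein that binds MCL1, had 13.5 and 22.7 normalised counts in control, 32.5 and 50.1 in oxaliplatin and 81.4 and 74.7 in cisplatin libraries. The groups did not overlap and stood in the order control, oxaliplatin and cisplatin. After cisplatin Pmaip1 rose by 2.11 ± 0.47 (SE) on the log2 scale, 4.31-fold (adjusted p = 5.92e-05 by DESeq2). After oxaliplatin its log2 fold change of 1.18 ± 0.48 narrowly missed the threshold (adjusted p = 0.0526 by DESeq2), and between the drugs it was -0.92 ± 0.43 (adjusted p = 0.104 by DESeq2).

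Counts of Pmaip1 were low, from 13 to 83 reads per library, and its standard errors were the widest of the family. Its cisplatin call was kept in each of the 11 alternative analyses that gave it an adjusted p (DESeq2 or edgeR adjusted p 1.36e-05 to 0.0168). DESeq2 gave no adjusted p in the other 3, among them those without cisplatin replicate 1 and without cisplatin replicate 2. After oxaliplatin, edgeR's quasi-likelihood test called it (edgeR adjusted p = 0.0228), as did DESeq2 with at least 10 counts in every library (adjusted p = 0.0351 by DESeq2), among 6 alternatives that gave an adjusted p (0.0228 to 0.0804).

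Bid (ENSMUSG00000004446, chromosome 6, 120891930 to 120916853), whose protein is cut by caspase-8 and then links death receptors to the mitochondrion, had 584 and 547 normalised counts in control, 725 and 755 in oxaliplatin and 848 and 914 in cisplatin libraries. The groups were separate and followed the same order as in Pmaip1, from control through oxaliplatin to cisplatin. Bid was the member called against control after both drugs, with log2 fold changes of 0.39 ± 0.11 (SE) after oxaliplatin (1.31-fold, adjusted p = 0.0026 by DESeq2) and 0.64 ± 0.11 after cisplatin (1.56-fold, adjusted p = 5.45e-08 by DESeq2). The difference between the drugs, -0.25 ± 0.11, did not pass (adjusted p = 0.0649 by DESeq2; 95% interval -0.46 to -0.04).

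For Bid the cisplatin call held in all 14 alternatives, with a largest adjusted p of 0.0035 (DESeq2 or edgeR). The oxaliplatin call was lost without control replicate 2 (adjusted p = 0.105 by DESeq2), oxaliplatin replicate 1 (0.0705) or oxaliplatin replicate 2 (0.143). Bid shares 628 exon bases with its neighbour Bcl2l13 on the opposite strand, which averaged 2339 counts against 733 for Bid. The library kit marked strand, but whether counting used it is not given in the sources used here, so the level of Bid is uncertain to that extent.

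Bcl2l11 (ENSMUSG00000027381, chromosome 2, 128126038 to 128162547), the gene of BIM, which binds all survival proteins, had 669 and 634 normalised counts in control, 564 and 607 in oxaliplatin and 814 and 775 in cisplatin libraries. The groups did not overlap, but here oxaliplatin lay below control and cisplatin above it. Bcl2l11 rose after cisplatin by 0.29 ± 0.11 (SE) on the log2 scale (1.22-fold, adjusted p = 0.0304 by DESeq2), and its change after oxaliplatin was -0.15 ± 0.11 (adjusted p = 0.346 by DESeq2). Between the drugs its log2 fold change was -0.44 ± 0.11 (adjusted p = 0.00056 by DESeq2).

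The cisplatin call of Bcl2l11 was lost without any 1 of the 6 libraries (DESeq2 adjusted p 0.101 to 0.321) and held in 5 of 14 alternatives. Its call between the drugs was firmer and was lost only without oxaliplatin replicate 1 (adjusted p = 0.108 by DESeq2) or cisplatin replicate 1 (0.0940) among the 14.

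Bbc3 (ENSMUSG00000002083, chromosome 7, 16308393 to 16318205), the gene of PUMA and a classical p53 target, had 183 and 126 normalised counts in control, 129 and 146 in oxaliplatin and 239 and 205 in cisplatin libraries. Control and oxaliplatin overlapped, with the control replicates farther apart than the oxaliplatin replicates, and both cisplatin libraries lay above all others. The log2 change was -0.16 ± 0.25 (SE) after oxaliplatin (adjusted p = 0.705 by DESeq2) and 0.53 ± 0.24 after cisplatin (adjusted p = 0.0876 by DESeq2). Between the drugs Bbc3 was lower in oxaliplatin cells, with a log2 fold change of -0.69 ± 0.25 (adjusted p = 0.0243 by DESeq2).

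The call of Bbc3 between the drugs was lost without oxaliplatin replicate 1 (adjusted p = 0.290 by DESeq2) or oxaliplatin replicate 2 (0.120), and no adjusted p was given without either cisplatin library. Against control, cisplatin passed in 2 of 14 alternatives, under edgeR (edgeR adjusted p = 0.0292) and without control replicate 1 (adjusted p = 0.0426 by DESeq2), where the log2 fold change was 0.81.

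Bad (ENSMUSG00000024959, chromosome 19, 6941861 to 6951899), whose protein is held by 14-3-3 proteins when growth factors signal, had 1055 and 897 normalised counts in control, 921 and 847 in oxaliplatin and 921 and 886 in cisplatin libraries. All groups overlapped. Its log2 fold changes were -0.14 ± 0.11 (SE), -0.11 ± 0.11 and -0.03 ± 0.11 after oxaliplatin, after cisplatin and between the drugs (DESeq2 adjusted p 0.392, 0.491 and 0.887). The 95% interval between the drugs was -0.25 to 0.19. Bad shares 524 exon bases with Gpr137 on the opposite strand, which averaged 460 counts against 925 for Bad. The strand caveat given for Bid applies to Bad and to sums that include it. Bad supplied 42.0% to 54.9% of the normalised counts per kilobase of the BH3-only members.

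**Figure D2:**
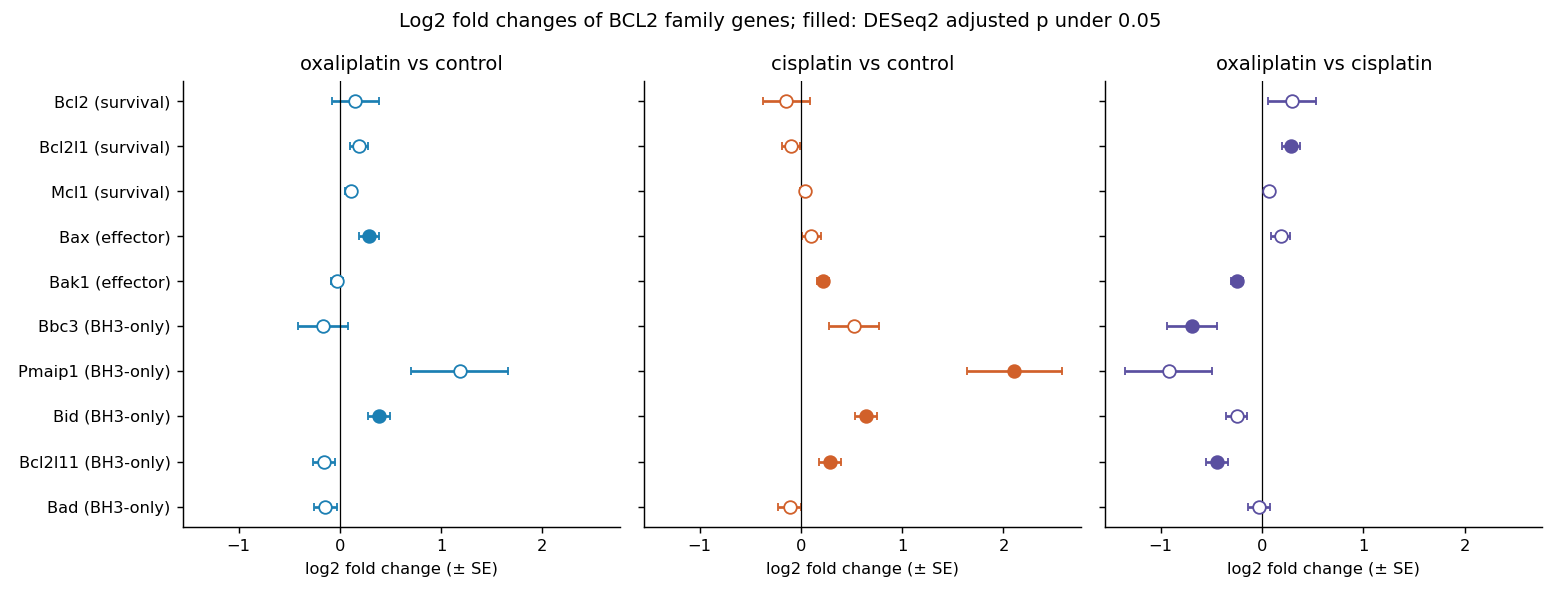
Log2 fold changes of the 10 genes (x axis) with their SE as bars in the 3 comparisons, filled where the DESeq2 adjusted p was below 0.05. Filled points lie at 0.29 for Bax and 0.39 for Bid after oxaliplatin, at 0.22 for Bak1, 0.29 for Bcl2l11, 0.64 for Bid and 2.11 for Pmaip1 after cisplatin, and at 0.28 for Bcl2l1, -0.25 for Bak1, -0.44 for Bcl2l11 and -0.69 for Bbc3 between the drugs.

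Between the drugs, Bak1 and Bcl2l11 had the smallest adjusted p of the members. Both stood above control after cisplatin, and after oxaliplatin Bak1 overlapped control and Bcl2l11 lay below it. For Bid and Pmaip1 the oxaliplatin libraries lay between control and cisplatin, and DESeq2 called neither between the drugs, whereas edgeR called both lower in oxaliplatin cells (edgeR adjusted p = 0.0156 for Bid and 0.0288 for Pmaip1), and Bax higher (0.0427). Libraries of oxaliplatin and control did not overlap for 6 members (5 up, 1 down), where this held for 64.8% of all tested genes (32.1% up, 32.7% down). The same held for 7 members between cisplatin and control (6 up, 1 down; 69.4% of all genes, 34.6% up, 34.8% down). Between the drugs it held for 8 members (3 up, 5 down; 68.0% of all genes, 33.5% up, 34.5% down). These totals are near the background. Against control more members lay up than down after either drug, where the shares of all genes were nearly equal. That split was not tested. In bulk RNA a higher level per cell and more cells with that transcript cannot be told apart.

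Levels were compared between genes on normalised counts per kilobase of exon. In control cells the order was Mcl1 (1047), Bak1 (958), Bax (582), Bad (382), Bcl2l1 (219), Bid (159), Bcl2l11 (81.1), Bbc3 (72.7), Bcl2 (19.5) and Pmaip1 (6.62). Only Bcl2l11 and Bbc3 overlapped among neighbours in this order. The order was the same in oxaliplatin cells. In cisplatin cells Bak1 (1115) stood above Mcl1 (1076), Bid (248) above Bcl2l1 (204), Bbc3 (104) beside Bcl2l11 (98.9) with overlapping libraries, and Pmaip1 (28.6) above Bcl2 (17.7). These orders depend on the exon length used. In mean normalised counts of cisplatin libraries without length scaling, Mcl1 (3679) stood above Bak1 (2683) and Bcl2l1 (938) above Bid (881). Likewise Bcl2l11 (794) stood above Bbc3 (222) and Bcl2 (162) above Pmaip1 (78.0).

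The ratio of killer to survival transcripts within a library needs no scaling between libraries. The sum of Bax and Bak1 over the sum of the survival genes, per kilobase, had a log2 value of 0.28 and 0.24 in control, 0.24 and 0.23 in oxaliplatin and 0.41 and 0.43 in cisplatin libraries. Cisplatin stood apart from both other groups, by 0.16 from control, and oxaliplatin overlapped control. The sum of the 5 BH3-only genes over the survival genes had a log2 value of -0.76 and -0.99 in control, -0.98 and -0.99 in oxaliplatin and -0.64 and -0.64 in cisplatin libraries. Here too cisplatin lay above the others, while the control replicates were 0.23 apart and the mean difference of cisplatin from control was 0.24.

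Of single pairs, Bak1 over Bcl2l1 separated all groups, with log2 ratios of 2.05 and 2.21 in control, 1.91 and 1.91 in oxaliplatin and 2.46 and 2.43 in cisplatin libraries. Oxaliplatin differed from control by -0.22 and cisplatin by 0.32. Bbc3 over Mcl1 was higher in cisplatin (-3.28 and -3.46) than in control (-3.59 and -4.16) and oxaliplatin (-4.21 and -4.03), and control and oxaliplatin overlapped. Bax over Bcl2, with 4.998 and 4.80 in control, 5.20 and 4.89 in oxaliplatin and 5.35 and 4.97 in cisplatin libraries, overlapped in every comparison. No test was made of these ratios. An exact permutation test of 2 libraries against 2 has 0.333 as its smallest two-sided p.

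**Figure D3:**
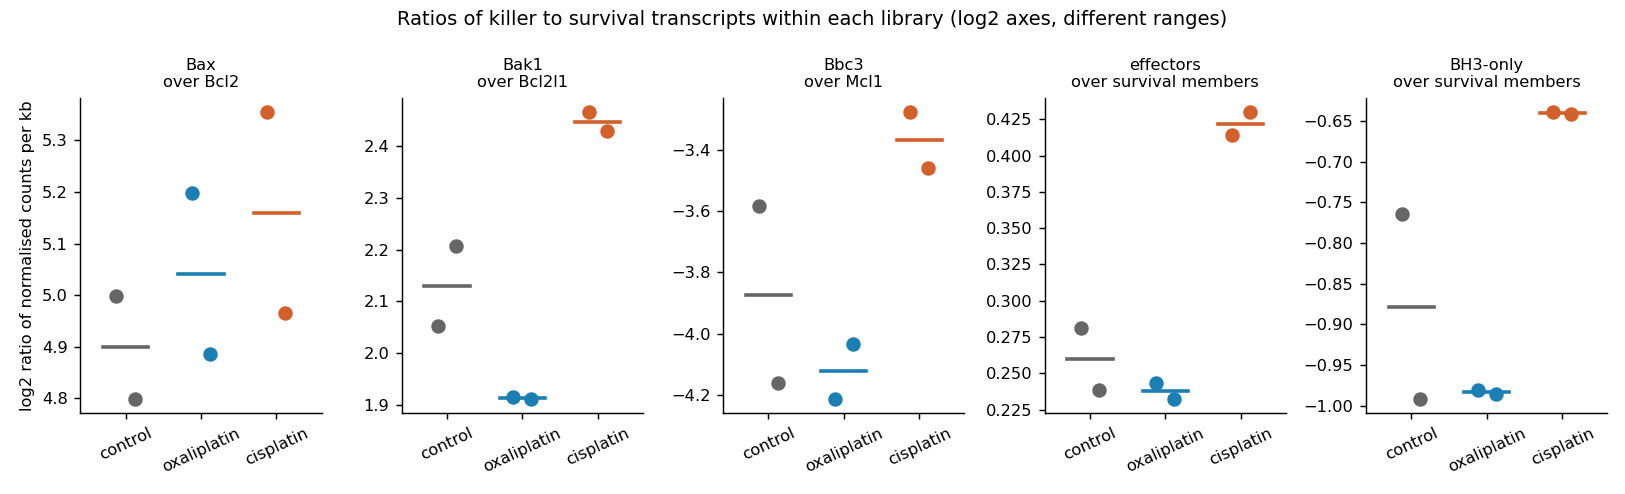
Log2 ratios of killer to survival transcripts (y axes, normalised counts per kilobase, each with its own range) in each library (points) with group means (lines). In the 2 panels of sums, both cisplatin libraries lie above the other 4, at 0.41 and 0.43 for effectors and at -0.64 for BH3-only genes.

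Of the 15 relatives in the wider family, 7 passed the filter. Bcl2a1a, Bcl2a1b, Bcl2a1d and Bcl2l10 had 0 counts in all libraries, and Hrk, Bik, Bcl2l14 and Bcl2l15 did not exceed 8.19 normalised counts. DESeq2 called 2 relatives after oxaliplatin (1 up, 1 down), 3 after cisplatin (1 up, 2 down) and 1 between the drugs (higher). Over all tested genes it called 20.2%, 28.1% and 19.9%. The median log2 fold changes of the relatives were 0.12, 0.06 and 0.03. Bcl2l2 (the survival gene of BCL-W), Bok (an effector-like gene), Bnip3l and Bcl2l12 were called in no comparison by DESeq2. edgeR's quasi-likelihood test called 3 of them in 1 comparison each, Bcl2l2 (edgeR adjusted p = 0.0458) and Bok (0.0129) higher after oxaliplatin and Bnip3l (0.0365) lower in oxaliplatin than in cisplatin cells.

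Bmf (ENSMUSG00000040093, chromosome 2, 118528757 to 118549687), a BH3-only gene whose protein is tied to the actin cytoskeleton, had 886 and 827 normalised counts in control, 522 and 558 in oxaliplatin and 561 and 570 in cisplatin libraries. Both drug groups lay far below control, and their libraries were close to each other. Bmf fell by log2 fold changes of -0.67 ± 0.11 (SE) after oxaliplatin (adjusted p = 4.14e-08 by DESeq2) and -0.60 ± 0.11 after cisplatin (adjusted p = 8.55e-07 by DESeq2), and both calls held without any 1 of the 6 libraries. It moved opposite to Bid, although both are BH3-only genes.

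Bnip3 (ENSMUSG00000078566, chromosome 7, 138890836 to 138909519), a mitophagy gene with a BH3-like stretch, had 1077 and 1139 normalised counts in control, 1336 and 1337 in oxaliplatin and 893 and 800.2 in cisplatin libraries. Oxaliplatin lay above control and cisplatin below it. Its log2 fold changes were 0.27 ± 0.09 (SE) after oxaliplatin (adjusted p = 0.0159 by DESeq2), -0.39 ± 0.09 after cisplatin (adjusted p = 0.00027 by DESeq2) and 0.66 ± 0.09 between the drugs (adjusted p = 5.99e-11 by DESeq2).

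The Bnip3 call between the drugs held without any 1 library. That after oxaliplatin was lost without either control library (adjusted p = 0.218 and 0.0754 by DESeq2) or either oxaliplatin library (0.215 and 0.216), and that after cisplatin without cisplatin replicate 2 (0.0754). Bcl2l13, which overlaps Bid, had 2150.1 and 2182 normalised counts in control and 2473 and 2436 in cisplatin libraries, and rose by 0.18 ± 0.06 on the log2 scale after cisplatin (adjusted p = 0.0127 by DESeq2). It lost that call without any 1 library (DESeq2 adjusted p 0.0713 to 0.203).

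Downstream of the family, 27 genes of mitochondrial release, caspases, caspase inhibitors and death receptors were all tested. DESeq2 called 8 after oxaliplatin (4 up, 4 down), 11 after cisplatin (9 up, 2 down) and 11 between the drugs (2 up, 9 down), with median log2 fold changes of 0.02, 0.14 and -0.13. The shares called over all tested genes were 20.2%, 28.1% and 19.9%. Vdac2, a channel of the outer membrane that binds BAK, had 5653 and 5394 normalised counts in control, 6286 and 6262 in oxaliplatin and 7014 and 7044 in cisplatin libraries. It rose by 0.18 ± 0.04 (SE) after oxaliplatin (adjusted p = 0.00030 by DESeq2) and 0.35 ± 0.04 after cisplatin (adjusted p = 9.69e-14 by DESeq2) on the log2 scale, and its cisplatin call held without any 1 library, as did that of Vdac1 (0.25 ± 0.04, adjusted p = 3.31e-09 by DESeq2). The oxaliplatin call of Vdac2 was lost without oxaliplatin replicate 1 (adjusted p = 0.0644 by DESeq2), and that of Vdac1 (0.11 ± 0.04, adjusted p = 0.0248 by DESeq2) without any 1 library (0.0708 to 0.366).

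Casp6, the gene of an executioner caspase, had 744 and 670 normalised counts in control, 518 and 511 in oxaliplatin and 785 and 779.7 in cisplatin libraries. It fell by 0.46 ± 0.11 (SE) on the log2 scale after oxaliplatin (adjusted p = 0.00043 by DESeq2) and differed by -0.61 ± 0.11 between the drugs (adjusted p = 1.27e-06 by DESeq2). The first of these calls was lost without control replicate 1 (adjusted p = 0.0719 by DESeq2) or oxaliplatin replicate 2 (0.0519), and the second held without any 1 library. Htra2, a mitochondrial protease that relieves caspase inhibition, rose after oxaliplatin by 0.43 ± 0.07 (adjusted p = 2.67e-08 by DESeq2, held without any 1 library). It also rose by 0.21 ± 0.07 after cisplatin (adjusted p = 0.0121 by DESeq2), which was lost without any 1 library except control replicate 1 (0.0648 to 0.243), and was higher in oxaliplatin than in cisplatin cells by 0.22 ± 0.07 (adjusted p = 0.0105 by DESeq2), which was lost without any 1 oxaliplatin or cisplatin library (0.0983 to 0.257). Birc2, the gene of the inhibitor cIAP1, was higher in oxaliplatin than in cisplatin cells by 0.34 ± 0.07 (adjusted p = 1.56e-05 by DESeq2, held without any 1 library). Against control Birc2 had 0.09 ± 0.07 after oxaliplatin (adjusted p = 0.359 by DESeq2) and -0.25 ± 0.07 after cisplatin (adjusted p = 0.0024 by DESeq2). That fall after cisplatin lost its call without control replicate 2, cisplatin replicate 1 or cisplatin replicate 2.

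Upstream, 14 of 15 transcription factors known to control BCL2 family genes were tested, and Trp73 had 0 counts in all libraries. DESeq2 called 7 after oxaliplatin (6 up, 1 down), 9 after cisplatin (8 up, 1 down) and 10 between the drugs (2 up, 8 down), with median log2 fold changes of 0.18, 0.38 and -0.26. Of all tested genes, 20.2%, 28.1% and 19.9% were called. Jun, a partner in the AP-1 factor, had 626 and 551 normalised counts in control, 940.4 and 976 in oxaliplatin and 1393 and 1474 in cisplatin libraries, a separate level for each group. On the log2 scale it rose by 0.70 ± 0.10 (SE) after oxaliplatin (adjusted p = 1.81e-10 by DESeq2) and 1.29 ± 0.10 after cisplatin (adjusted p = 3.40e-35 by DESeq2).

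Myc, a transcription factor that drives growth and sensitises cells to death, rose by 0.59 ± 0.08 (SE) and 0.99 ± 0.08 on the log2 scale after oxaliplatin and cisplatin (adjusted p = 5.75e-12 and 2.37e-33 by DESeq2). Ddit3, the gene of CHOP, an endoplasmic reticulum stress factor that acts on Bcl2l11, rose by 0.62 ± 0.09 and 0.79 ± 0.09 (adjusted p = 3.25e-11 and 1.39e-18 by DESeq2). Atf4 and Rela were called after cisplatin, at 0.35 ± 0.04 and 0.41 ± 0.06 (adjusted p = 5.90e-15 and 3.96e-09 by DESeq2), and had -0.04 ± 0.04 and 0.10 ± 0.07 after oxaliplatin (adjusted p = 0.562 and 0.262 by DESeq2). These calls of Jun, Myc, Ddit3, Atf4 and Rela against control held without any 1 library.

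Trp53, the gene of p53, had 819 and 872 normalised counts in control, 1005 and 1007 in oxaliplatin and 1213 and 1143 in cisplatin libraries. It rose by 0.48 ± 0.09 (SE) on the log2 scale after cisplatin (adjusted p = 2.16e-06 by DESeq2, held without any 1 library) and by 0.25 ± 0.09 after oxaliplatin (adjusted p = 0.0291 by DESeq2). The oxaliplatin call was lost without any 1 library (DESeq2 adjusted p 0.0945 to 0.285). Atf3 rose by 1.02 ± 0.17 after cisplatin (adjusted p = 3.70e-08 by DESeq2, held without any 1 library) and by 0.43 ± 0.17 after oxaliplatin (adjusted p = 0.0488 by DESeq2, lost without any 1 library, 0.174 to 0.404).

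Of 10 further p53 target genes, all tested, DESeq2 called 5 after oxaliplatin (2 up, 3 down), 4 after cisplatin (all higher) and 5 between the drugs (all lower), with median log2 fold changes of -0.25, 0.44 and -0.60. Shares over all tested genes were 20.2%, 28.1% and 19.9%. Cdkn1a, the cell cycle inhibitor p21, had 120.4 and 139.9 normalised counts in control, 102 and 111 in oxaliplatin and 254 and 263 in cisplatin libraries. Its log2 fold change was 0.99 ± 0.21 (SE) after cisplatin (adjusted p = 3.44e-05 by DESeq2, held without any 1 library) and -0.29 ± 0.23 after oxaliplatin (adjusted p = 0.384 by DESeq2). Like Bbc3, it was above control only in the cisplatin libraries. Oxaliplatin differed from cisplatin by -1.28 ± 0.22 (adjusted p = 8.63e-08 by DESeq2).

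Aen, a nuclease gene, rose after both drugs, by 0.67 ± 0.11 (SE) and 0.77 ± 0.11 on the log2 scale (adjusted p = 9.68e-08 and 3.79e-10 by DESeq2, both held without any 1 library). Phlda3, an inhibitor of AKT, rose by 0.54 ± 0.09 after cisplatin (adjusted p = 1.73e-07 by DESeq2, held without any 1 library). Its rise after oxaliplatin, 0.33 ± 0.10 (adjusted p = 0.0034 by DESeq2), was lost without control replicate 2 (0.112), oxaliplatin replicate 1 (0.0880) or oxaliplatin replicate 2 (0.178). Sesn2, a stress gene that restrains growth signalling, had 549 and 554 normalised counts in control, 350.0 and 326 in oxaliplatin and 666 and 630.3 in cisplatin libraries. It fell after oxaliplatin by 0.70 ± 0.13 on the log2 scale (adjusted p = 4.38e-07 by DESeq2, held without any 1 library). Between the drugs Sesn2 differed by -0.94 ± 0.12 (adjusted p = 3.09e-12 by DESeq2).

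Trp53inp1 fell by 0.61 ± 0.20 (SE) on the log2 scale after oxaliplatin (adjusted p = 0.0156 by DESeq2, lost without any 1 library). Oxaliplatin differed from cisplatin in Trp53inp1 by -0.91 ± 0.20 (adjusted p = 7.55e-05 by DESeq2). Mdm2, which encodes the ligase that degrades p53, rose by 0.34 ± 0.08 after cisplatin (adjusted p = 0.00031 by DESeq2), and lost that call without cisplatin replicate 1 (0.0512). After oxaliplatin it had a log2 fold change of 0.10 ± 0.08 (adjusted p = 0.422 by DESeq2).

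Finally, 8 genes that bind BCL2 family proteins or control their turnover were tested. DESeq2 called 1 after oxaliplatin (higher), 6 after cisplatin (4 up, 2 down) and 7 between the drugs (3 up, 4 down), with median log2 fold changes of 0.06, 0.10 and -0.04. Among all tested genes the shares called were 20.2%, 28.1% and 19.9%. Dynll2, the dynein light chain that holds BMF, rose by 0.49 ± 0.05 (SE) on the log2 scale after cisplatin (adjusted p = 3.58e-22 by DESeq2), while its value after oxaliplatin was 0.05 ± 0.05 (adjusted p = 0.470 by DESeq2). Usp9x, a deubiquitinase that stabilises MCL1, fell after cisplatin by 0.22 ± 0.05 (adjusted p = 0.00028 by DESeq2), and both of these cisplatin calls held without any 1 library. The ligase gene Huwe1, which targets MCL1, fell after cisplatin by 0.27 ± 0.10 (adjusted p = 0.0339 by DESeq2), a call lost without control replicate 2 (0.0738), either oxaliplatin library (0.0925 and 0.0960) or cisplatin replicate 1 (0.0747).

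The 14-3-3 genes Ywhaq, Ywhab and Ywhaz, whose proteins hold BAD, had log2 fold changes after cisplatin of 0.23 ± 0.05 (SE), 0.16 ± 0.04 and 0.09 ± 0.03 (adjusted p = 6.00e-05, 0.00033 and 0.0327 by DESeq2). The call of Ywhaq held without any 1 library, that of Ywhab was lost without cisplatin replicate 2 (adjusted p = 0.0520 by DESeq2) and that of Ywhaz without any 1 library (0.0614 to 0.357).

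**Figure D4:**
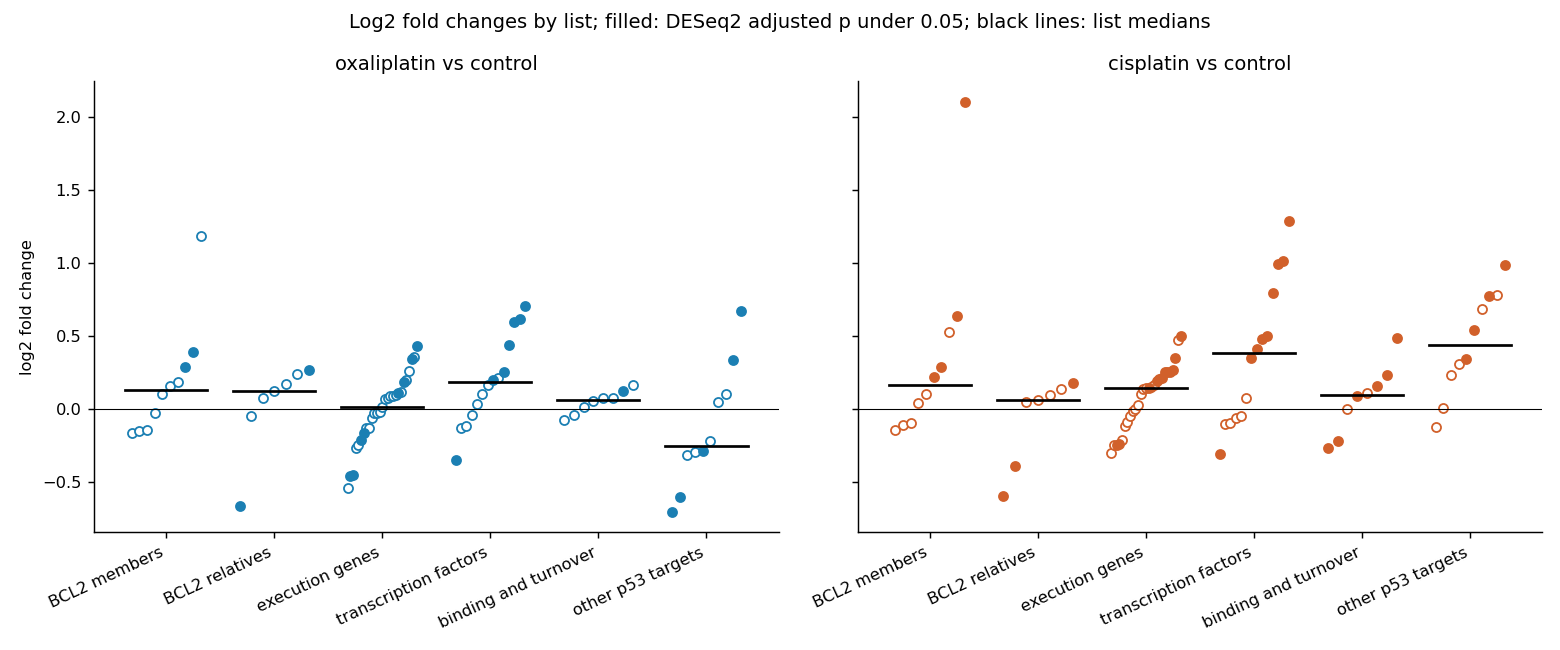
Log2 fold changes (y axis) of the BCL2 members and 5 related lists after oxaliplatin and after cisplatin, filled where the DESeq2 adjusted p was below 0.05, with list medians as black lines. The median of the other p53 targets is -0.25 after oxaliplatin and 0.44 after cisplatin, and that of the members is 0.13 and 0.16.

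Promoters of the members were searched for short motifs in a RefSeq table (GRCm38.p6) of 250 bases before to 50 after each start, which held 15 windows of 9 members. The letters searched, on both strands, were TGACTCA (AP-1), TGACGTCA (CRE), CACGTG (E-box), GGGCGG (GC-box), CCAAT and, by name, the p53 half-site. AP-1 and CRE letters were in no window of a member, against 5.2% and 1.79% of all 32851 windows. GC-box letters were in 10 of the 15 windows, from 7 members (35.7% of all windows), CCAAT in 4, from 3 members (37.4%), E-box letters in 2, of Bax and Bbc3 (7.15%), and a p53 half-site in 1, of Bax (8.36%). A match describes the letters only. The 250 bases before the start are shown for Bax and Bid, the members called after oxaliplatin, with matches to the p53 half-site, GC-box and E-box in capitals, 5′ to 3′ on the minus strand. They lie at chr7:45466899-45467148 (Bax) and chr6:120916825-120917074 (Bid).
Bax: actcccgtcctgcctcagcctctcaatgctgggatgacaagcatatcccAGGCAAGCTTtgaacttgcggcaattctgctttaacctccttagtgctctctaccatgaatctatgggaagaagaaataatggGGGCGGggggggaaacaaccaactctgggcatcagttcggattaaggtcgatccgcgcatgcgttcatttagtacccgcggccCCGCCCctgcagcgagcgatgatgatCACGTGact
Bid: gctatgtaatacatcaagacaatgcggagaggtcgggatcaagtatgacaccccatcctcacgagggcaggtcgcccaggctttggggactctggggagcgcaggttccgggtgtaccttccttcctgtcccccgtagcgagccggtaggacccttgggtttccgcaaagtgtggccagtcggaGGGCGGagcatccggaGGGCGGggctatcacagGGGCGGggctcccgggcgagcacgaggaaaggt

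In the Bax window counted from the start site, the p53 half-site lay at -201 to -192, the GC-boxes began at -118 and -35 and the E-box at -9. The Bid window held 3 GC-boxes, which began at -66, -50 and -33, and no E-box or p53 half-site.

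Bid and Bax had the highest absolute log2 fold changes of members called in either drug against control, among those with a mean of at least 100 normalised counts. The genes most like them, with the same minimum, were found by Pearson's r of log2 normalised counts over the 6 libraries. For Bid these were Elavl1, Lmf2 and Trip13, with r of 0.998 each, and 1114 of 10731 genes had an r above 0.9. For Bax they were Cops3 (0.993), Gpn1 (0.990) and Ncaph2 (0.987), with 264 genes above 0.9. The 6 points share 3 groups, so that genes with similarly spaced groups and close replicates reach a high r. These values are a description.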

How the data were processed

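Libraries were made from poly(A) RNA with a stranded kit, per the labels. The deposited values are expected counts, which RSEM estimates for each gene. The submitters' processing notes name STAR 2.5.3a, RSEM 1.3.0 and GRCm38.p6 without roles. The authors' methods describe another counting program for in vitro RNA-seq, and the strand setting is not given in the sources used here. Of 54446 identifiers, 54409 matched GENCODE M21. For Ddit3, which has a second short model without counts, the longer was used.

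Expected counts were rounded, and 14956 genes that reached 10 counts in 2 or more libraries entered the fit. DESeq2 1.42.0 (R 4.3.3) was fitted to all 6 libraries with group as factor, using Wald tests and unshrunken fold changes. Two-sided p values were adjusted by Benjamini-Hochberg, with a threshold of 0.05 and independent filtering at 0.1. P values measure only the spread between libraries. Both DESeq2 and edgeR 4.0.16 were tested on simulated data.

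The members and lists were chosen with earlier results of these data known. All members are named, as are relatives that were called, the 6 genes of each other list with the smallest adjusted p, and always Trp53, Cdkn1a and Mdm2. A few genes that this rule or the marker lists cover are not reported here. Alternatives were edgeR's quasi-likelihood test, scaling by TMM or total counts, dropping the low-count filter or requiring 10 counts in every library, turning independent filtering off, a replicate block, fitting the 4 libraries compared alone, and leaving out each library in turn. Where a group was left with 1 library, that library is assumed to vary like the other groups. Replicates differed by more than sampling noise, most of all in control (mean chi-square per gene 4.62 in control, 2.81 in oxaliplatin and 2.80 in cisplatin).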

Additional observations from a re-analysis of the deposited data

How the results depend on the processing

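Most alternative values of the members belong to results that were not called and so could lose no call. Called results kept their call in between 5 of 14 alternatives (Bcl2l11 after cisplatin) and all 14 (Bid after cisplatin). Of 399 alternative values of the members' log2 fold changes, 348 kept their direction and side of the threshold, 34 lost and 9 gained a call, and 8 turned direction, none of them called. The latter were Bcl2 after oxaliplatin without oxaliplatin replicate 2 (-0.017) and after cisplatin without cisplatin replicate 1 (0.056), Mcl1 after cisplatin under total-count scaling (-0.0087), Bak1 after oxaliplatin without control replicate 2 (0.0063), Bbc3 after oxaliplatin without control replicate 1 (0.13), Bad after cisplatin without control replicate 1 (0.0099) and Bad between the drugs under total-count scaling (0.0036) and without oxaliplatin replicate 2 (0.027). Over the libraries left out, these results ranged from -0.017 to 0.308 and from -0.368 to 0.056 for Bcl2, from -0.059 to 0.0063 for Bak1, from -0.406 to 0.13 for Bbc3, and from -0.224 to 0.0099 after cisplatin and -0.093 to 0.027 between the drugs for Bad. edgeR called 5 members after oxaliplatin, 5 after cisplatin and 7 between the drugs. It called 5 relatives after oxaliplatin and 2 between the drugs, and 7 p53 targets after cisplatin and 8 between the drugs. Its shares over all tested genes were 30.9% after oxaliplatin, 40.9% after cisplatin and 31.9% between the drugs. With a replicate block, members called numbered 1 after oxaliplatin, 2 after cisplatin and 2 between the drugs. The calls of Bax after oxaliplatin, Bcl2l11 after cisplatin, and Bcl2l1 and Bbc3 between the drugs were lost with it, and Pmaip1 had no adjusted p. After oxaliplatin the block left 1 relative, 4 execution genes, 4 transcription factors and 0 binding and turnover genes called. The last count was also 0 when scaled to total counts, when low counts were not filtered, when 10 counts were required in every library and when the 4 libraries compared were fitted alone. Libraries with the same number did not deviate together (Pearson's r across 14956 genes 0.0101, 0.0375 and -0.0128 for the group pairs). The check gave no sign of pairing by number but cannot exclude it, since genes with few counts weigh in it as much as others. Without length scaling the log2 difference of effectors over survival genes was -0.057 after oxaliplatin and -0.24 between the drugs, and that of BH3-only over survival genes was -0.39 between the drugs.

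With 1 library left out at a time, the calls after oxaliplatin, after cisplatin and between the drugs ranged over 0 to 2, 1 to 3 and 0 to 4 for members, 1 to 2, 1 to 2 and 1 to 1 for relatives, 3 to 5, 3 to 10 and 3 to 10 for execution genes, 4 to 4, 8 to 9 and 5 to 9 for transcription factors, 0 to 0, 4 to 5 and 3 to 6 for binding and turnover genes, and 2 to 4, 3 to 4 and 1 to 4 for p53 targets. The log2 difference of effectors over survival genes ranged over -0.04 to -0.0006, 0.14 to 0.18 and -0.19 to -0.18, and that of BH3-only over survival genes over -0.22 to 0.0082, 0.12 to 0.35 and -0.35 to -0.34. The causes were not tested. Total-count scaling moved the share of higher genes among all called from 56.0% to 43.4% after cisplatin and from 43.3% to 54.3% between the drugs, and the median of all genes after cisplatin to -0.05. Pmaip1 had 13 and 23 counts in control, and DESeq2 gave it no adjusted p in some alternatives.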
